A study of Mus musculus with 6 samples.

Results

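The Hes and Hey genes encode basic helix-loop-helix repressors that carry the output of Notch signalling into the nucleus, and 7 genes of this kind were followed here by symbol among 32285 measured genes: Hes1, Hes5, Hes6, Hey1, Hey2, Heyl and Nrarp. The members were chosen by their UMI levels over marker-defined cell types in these same libraries. The choice set Hes genes in astroglia against Hey genes in endothelium and pericytes, by group of mice. That pattern is therefore a description and carries no test. All 7 symbols were found in each of the 6 libraries. Single cells came from cortex and subventricular zone, where adult neural stem cells line the lateral ventricles, of mice aged 8 to 12 weeks. They had been sorted as endothelial cells (CD31+Glast-CD45-) and as neural stem and progenitor cells (CD31-Glast+CD45-), and each group holds 2 libraries that the labels call biological replicates. The groups are Cx43ECiKO, titled with Vecad, where deletion of connexin 43 is directed at endothelial cells; Cx43GlastiKO, where it is directed at cells expressing Glast; and control mice carrying the floxed alleles (Cx43flox/flox). The labels do not give the Cre line in full, the inducing agent or the part of the gene that is removed.

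A Notch receptor that meets its ligand on a neighbouring cell is cut within the membrane, and the freed part joins the DNA-binding protein Rbpj to switch on target genes. Hes1 and Hes5 are targets that keep neural stem cells from differentiating. Hey1, Hey2 and Heyl are targets best known from heart, arteries and mural cells, the pericytes and muscle cells that wrap vessels. Nrarp is a target whose small ankyrin repeat protein holds Notch signalling back. Hes6 stands apart, since its protein counteracts Hes1 and promotes neuronal differentiation.

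The letters that Rbpj recognises, TGGGAA on either strand, were looked for in the RefSeq promoter windows of the members (GRCm38.p6, 250 bases before to 30 after the start of transcription). Windows were held for 4 of the 7 symbols. Hes1, Hey1 and Heyl had no entry. Hes5, with most of its UMIs in astroglial-like cells, and Hey2, which was highest in pericytes, are shown because each window held the letters 2 times, and Nrarp is shown beside them because its window held them 0 times. Capitals mark the letters as read (TGGGAA) or as they appear when they lie on the other strand (TTCCCA). The Hes5 window is chr4:154960673-154960952 on the plus strand, the Hey2 window chr10:30842754-30843033 on the minus strand and the Nrarp window chr2:25180508-25180787 on the plus strand.
Hes5: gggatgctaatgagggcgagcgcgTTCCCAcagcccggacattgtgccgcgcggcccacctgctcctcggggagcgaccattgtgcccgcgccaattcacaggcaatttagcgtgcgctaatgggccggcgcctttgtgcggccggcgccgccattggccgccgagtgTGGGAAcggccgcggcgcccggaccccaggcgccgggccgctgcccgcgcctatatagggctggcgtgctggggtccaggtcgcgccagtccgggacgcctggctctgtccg
Hey2: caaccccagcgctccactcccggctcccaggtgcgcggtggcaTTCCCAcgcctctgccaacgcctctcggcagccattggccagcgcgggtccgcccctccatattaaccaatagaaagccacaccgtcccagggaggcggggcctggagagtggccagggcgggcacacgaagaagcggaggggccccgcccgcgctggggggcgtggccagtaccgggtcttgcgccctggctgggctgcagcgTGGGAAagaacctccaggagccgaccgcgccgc
Nrarp: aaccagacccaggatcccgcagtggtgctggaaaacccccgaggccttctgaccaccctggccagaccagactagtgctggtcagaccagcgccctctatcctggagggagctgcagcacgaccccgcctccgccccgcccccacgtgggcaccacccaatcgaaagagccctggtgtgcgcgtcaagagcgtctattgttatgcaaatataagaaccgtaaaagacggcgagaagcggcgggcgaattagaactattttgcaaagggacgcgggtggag
In Hes5 the capitals begin 226 and 82 bases before the start, and in Hey2 they begin 207 and 3 bases before it. All 4 matches extend to the longer form GTGGGAA, so matches to the shorter and the longer form overlap. Of 32851 promoter windows of this length, 23.8% held TGGGAA at least once and 3.4% at least 2 times, while GTGGGAA was held by 5.94% and 0.234%. The 2 windows of Hes6 held neither. A match describes the letters and is not a measured binding site.

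The genes lie on 6 chromosomes (GENCODE M21, GRCm38). Hes1 is at chr16:30064384-30067796 on the plus strand, Hes5 at chr4:154960923-154962371 on the plus strand, Hes6 at chr1:91411483-91414038 on the minus strand and Hey1 at chr3:8663359-8667256 on the minus strand. Hey2 is at chr10:30832359-30842801 on the minus strand, Heyl at chr4:123233556-123249875 on the plus strand and Nrarp at chr2:25180758-25183339 on the plus strand. All 7 are annotated as protein coding. An antisense gene overlaps Hes5 (Gm20421, 0 UMIs) and another overlaps Nrarp (Gm38287, 150 UMIs), and whether the counting used strand is not given in the sources used here.

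Unique molecular identifiers (UMIs) were counted per gene and cell, and 6323 of 7433 barcodes were kept, from 410 to 2504 per library. The libraries numbered 1 were mostly endothelial-like (90.9% to 97.1% of kept cells) and those numbered 2 mostly glial. The library labelled ECiKO 2 stood apart by depth, with a median of 786 UMIs per kept cell against 2842.5 to 10859 in the other 5. Any 2 libraries shared 0 or 1 barcodes. Cells were classed by marker genes, and "-like" in a class name marks that no protein or position backs it. Gja1, the gene of connexin 43, did not fall where the labels place its deletion: in endothelial-like cells it stood at 235 and 201 CPM (UMIs per 1000000 of the class) in the libraries labelled ECiKO, 144 and 131 in those labelled GlastiKO and 93.6 and 109 in the controls. Its log2 fold change for the label ECiKO was 1.23 ± 0.321 (SE; edgeR, Benjamini-Hochberg adjusted p = 0.05779). In astroglial-like cells it stood at 2483 in ECiKO 2, 2471 in GlastiKO 2 and 2544 in control 2. Whether the 3′ tags cover the deleted part is not given, and the cause of these values was not tested. They do not check the deletion, and groups are called below by their labels.

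Levels are given as CPM, the UMIs of a gene per 1000000 UMIs of the same class and library, for classes with at least 20 cells, and are set side by side within a gene. Intervals in brackets are exact 95% intervals that cover counting error only. Sums over a class do not separate fewer expressing cells from less RNA per cell.

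Hes5, the stem cell repressor, was highest in astroglial-like cells among the classes with at least 20 cells. It reached 487 (420 to 561) in ECiKO 2, 337 (313 to 362) in GlastiKO 2 and 525 (492 to 559) in control 2. Not 1 UMI was found in the 1716 endothelial-like or the 119 pericyte-like cells, where the floor of 3 UMIs over all 6 libraries is 0.515 and 5.31 CPM. Of all Hes5 UMIs in kept cells, 95.1% lay in astroglial-like cells. The class of oligodendrocyte precursor-like cells had only 7 cells, and its Hes5 level of 372 (248 to 538) lay within the astroglial-like range. A Hes5 UMI was seen in 49.7% of astroglial-like cells (median 3746 UMIs), and in 25.8% of the 893 that could be thinned to 1000 UMIs, 121 shallower cells being left out. In oligodendrocyte-like cells (median 1233 UMIs) the shares were 0.592% and, thinned, 0.117%, with 1338 of 3041 cells left out. Against the endothelial-like floor of the same library, astroglial-like Hes5 was at least 6.47-fold higher in ECiKO 2, at least 24.0-fold in GlastiKO 2 and at least 20.9-fold in control 2.

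Hes1, the other stem cell repressor, did not keep to astroglia. Its order was pericyte-like, endothelial-like, astroglial-like. Pericyte-like cells held 794 in GlastiKO 1, 552 in GlastiKO 2 and 768 in control 1, the 3 libraries with enough of them. Endothelial-like cells held 342 and 125 in ECiKO, 322 and 201 in GlastiKO and 342 and 293 in control libraries. The value of 125 rests on 5 UMIs in 1 of 24 cells, and it is the only endothelial-like value that reaches down to the astroglial-like range. Astroglial-like cells held 88.0 in ECiKO 2, 104 in GlastiKO 2 and 146 in control 2. Pericyte-like Hes1 was 2.47 (1.98 to 3.05), 2.75 (1.9 to 4.03) and 2.24 (1.82 to 2.74) times the endothelial-like level in GlastiKO 1, GlastiKO 2 and control 1. Because endothelial-like cells were many, they held 64.8% of all Hes1 UMIs and astroglial-like cells 18.2%.

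**Figure D1:**
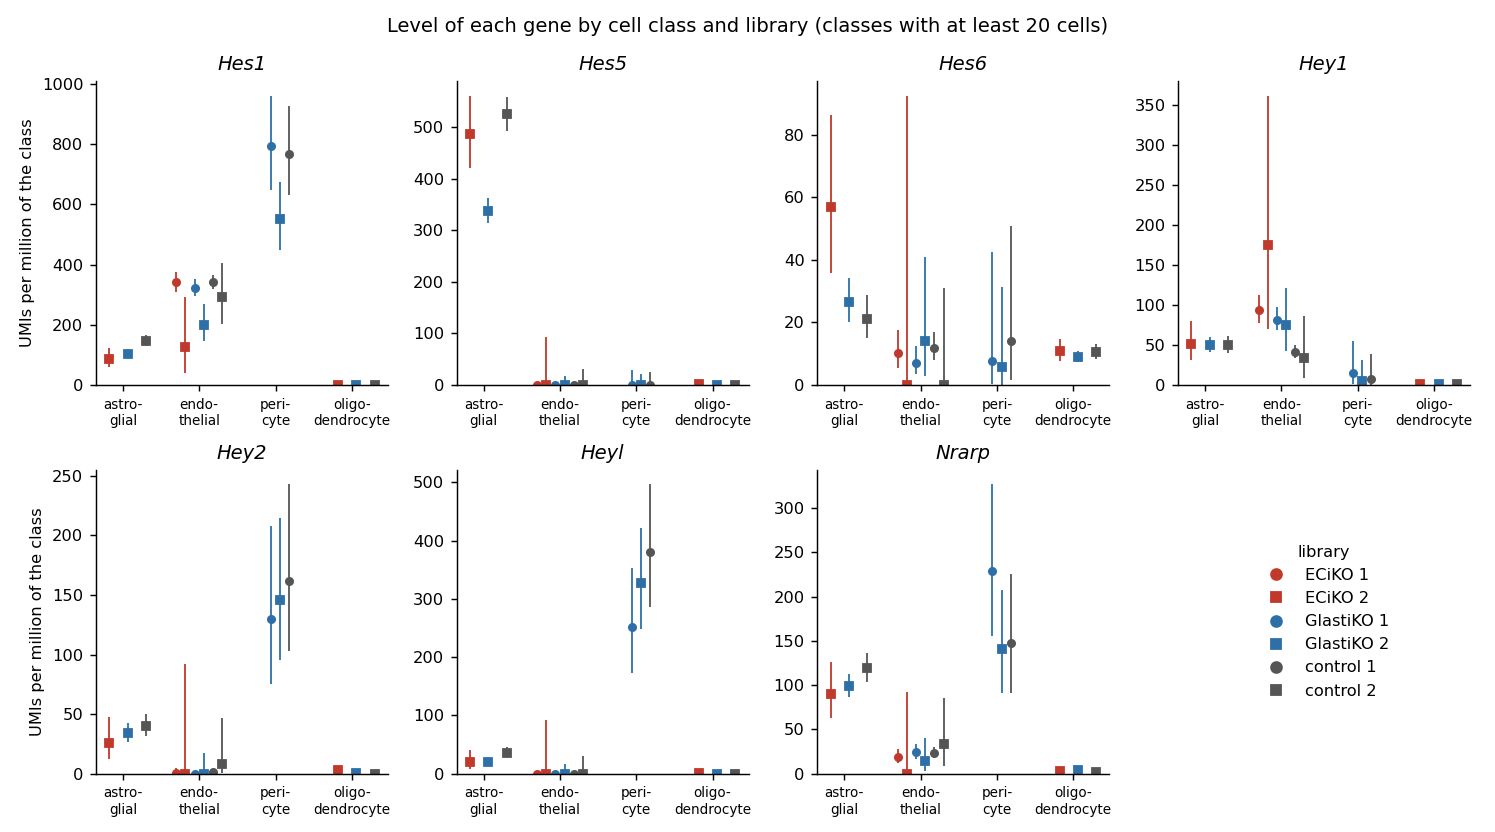
Level of each of the 7 genes (vertical axes, CPM, from 0) in astroglial-like, endothelial-like, pericyte-like and oligodendrocyte-like cells; each point is 1 library with at least 20 cells of the class, coloured by library, and bars are exact 95% intervals for counting error. Hes5 stands at 337 to 525 in astroglial-like cells and at 0 in endothelial-like and pericyte-like cells, whereas Heyl stands at 252 to 381 in pericyte-like cells and at 0 in endothelial-like cells.

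Of the Hey genes only Hey1 was found at more than a few UMIs in endothelial-like cells. Hey2 had 5 UMIs in all 1716 endothelial-like cells and Heyl had 0. Over the whole class, the endothelial part of the description under which these 2 genes were listed therefore does not hold. Zone markers placed most of the class with capillaries. In control 1 the 3 Hey2 UMIs lay in 2 of 23 arterial-like cells, 32.3 (6.66 to 94.4), and 649 capillary-like cells held 0. In ECiKO 1 and GlastiKO 1 the 9 and 15 arterial-like cells held 0, and 352 capillary-like cells of ECiKO 1 held 1. Hey2 and Heyl belonged to pericyte-like cells first and astroglial-like cells second. Hey2 held 130 in GlastiKO 1, 146 in GlastiKO 2 and 162 in control 1 pericyte-like cells, and 25.9, 34.3 and 39.9 in astroglial-like cells of ECiKO 2, GlastiKO 2 and control 2. Heyl held 252, 327 and 381 in the same 3 pericyte-like sums. In astroglial-like cells Heyl held 20.7, 19.8 and 36.1. The 2 ranges do not overlap for either gene.

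Pericyte-like Heyl was at least 132-fold above the endothelial-like floor in GlastiKO 1, at least 23.3-fold in GlastiKO 2 and at least 331-fold in control 1. For Hey2 the pericyte-like level was at least 68.1-fold higher in GlastiKO 1 and at least 10.5-fold higher in GlastiKO 2, and in control 1, where endothelial-like cells held 3 UMIs, the ratio was 141 (42.5 to 733). A Heyl UMI was seen in 73.1% of the 119 pericyte-like cells and in 25.5% of the 110 that could be thinned, against 0.132% and 0% of oligodendrocyte-like cells. The pericyte-like sums also held endothelial markers at 445 to 648 CPM, a class with no Heyl UMI at all. Astroglial markers stood at 5641 to 9164, from 6, 6 and 3 of the 10 markers in GlastiKO 1, GlastiKO 2 and control 1. The part of the astroglial markers in these levels was not tested. The 6, 11 and 13 pericyte-like cells of ECiKO 1, ECiKO 2 and control 2 were below the minimum, and their Heyl values were 215, 468 and 231.

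Nrarp, the feedback inhibitor, was also highest in pericyte-like cells, at 229 in GlastiKO 1, 141 in GlastiKO 2 and 148 in control 1. Astroglial-like cells followed with 90.6 in ECiKO 2, 99.2 in GlastiKO 2 and 119 in control 2. Endothelial-like cells were lowest of the 3, with 19.0 and 0 in ECiKO, 24.1 and 14.0 in GlastiKO and 23.4 and 33.5 in control libraries. The 0 of ECiKO 2 has a floor of 75.2 and an upper limit of 92.5. The 14.0 rests on 3 UMIs, and the 33.5 on 4 UMIs in 1 of 46 cells. The pericyte-like and astroglial-like ranges do not overlap, but the pericyte-like intervals of GlastiKO 2 (91.1 to 208) and control 1 (91.6 to 226) take in the astroglial-like level of control 2. Pericyte-like Nrarp was 9.49 (5.68 to 15.7), 10.1 (3.07 to 52.0) and 6.32 (3.66 to 10.5) times the endothelial-like level in GlastiKO 1, GlastiKO 2 and control 1.

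Hey1, a repressor linked to arterial identity, was shared by endothelial-like and astroglial-like cells and nearly missing from pericyte-like cells. Astroglial-like levels were 51.8 (31.6 to 80.0) in ECiKO 2 and 49.6 (40.0 to 60.8) in control 2, and the 111 UMIs of GlastiKO 2 gave an interval of 41.2 to 60.3. Pericyte-like levels were 15.3, 5.63 and 7.05, from 2, 1 and 1 UMIs. The endothelial-like levels, given below, lay on both sides of the astroglial-like ones, so these 2 classes had no fixed order. Endothelial-like cells held 57.9% of all Hey1 UMIs and astroglial-like cells 33.8%.

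Hes6, which opposes Hes1, followed none of the others. Its highest levels were in 36 cycling progenitor-like cells of ECiKO 2, with 232 (148 to 345), and in 22 neuroblast-like cells of GlastiKO 2, with 127 (76.2 to 198), whose intervals overlap. Neither of those sums held a Hes1 UMI. Choroid plexus-like cells held 45.7 in ECiKO 2 and 65.4 in GlastiKO 2. Astroglial-like cells held 57.0, 26.6 and 21.0 in ECiKO 2, GlastiKO 2 and control 2, and oligodendrocyte-like cells 10.8, 9.0 and 10.4. Endothelial-like cells ranged from 0 to 14.0. Oligodendrocyte-like cells, the largest class, thus held 33.5% of Hes6 UMIs at a low level, while each of the other members lay between 0.0938 and 4.5 CPM in them.

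In a typical cell these genes were sparse. On average 2.44 of the 7 were detected in a pericyte-like cell, 1.53 in an astroglial-like cell, 0.618 in an endothelial-like cell and 0.113 in an oligodendrocyte-like cell. At 1000 UMIs per cell, 72.7%, 45.8%, 26.3% and 1.7% of these cells held a UMI of any member, so the order of the classes was the same at equal depth.

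The levels of the upstream genes in control libraries were set beside the members. Of the receptors, Notch1 stood at 257 in astroglial-like cells of control 2, 356 in endothelial-like and 472 in pericyte-like cells of control 1. Notch3, the mural receptor, stood at 38.3, 0.767 and 796 in the same 3 sums, and Notch4, the endothelial receptor, at 5.39, 91.7 and 21.1. Of the ligands, Dll4 and Jag2 stood at 116 and 262 in endothelial-like cells and at 0 in astroglial-like cells. Dner, a neuronal and glial ligand, stood at 183 in astroglial-like cells and 0 in the other 2. Lfng, which modifies the receptors with sugar, was 323 in astroglial-like, 62.1 in endothelial-like and 0 in pericyte-like cells.

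Genes with the most similar pattern were found by Pearson correlation of log2(CPM + 10) over 37 sums of class and library from 11 classes, among 13153 genes. These sums share libraries, depth and marker-based classes, so the values are a description. Heyl was closest to Atp13a5 (0.985), itself a pericyte marker of the classing, Rgs4 (0.98) and Notch3 (0.971). Hes5 was closest to Gpr37l1 (0.969), Ramp1 (0.956) and Mro (0.954). Hey2 followed Gpc6 (0.898), Fads3 (0.888) and Zfp703 (0.868), and Hes1 followed Epas1 (0.886), Lamb2 (0.88) and Lpp (0.877). Nrarp followed Pxdn (0.863), Poglut2 (0.849) and Itpr2 (0.838). Hey1 (Nhsl1 and Fgd6, 0.844 each, and Nebl, 0.841) and Hes6 (Ccdc112, 0.86, and Gadd45g, 0.823) had looser neighbours. Among the members, Hey2 and Heyl were closest (0.841), followed by Heyl with Nrarp (0.721) and Hes1 with Nrarp (0.718). Hes1 and Hes5 were unlike (0.081), as were Hey1 and Hey2 (-0.031).

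The endothelial-like class was the one that all 6 libraries held in sufficient number, and there the groups were compared with edgeR over 8716 genes. Each group set a mostly endothelial-like library beside a mostly glial one. The endothelial-like cells numbered 398 and 24 in ECiKO, 452 and 66 in GlastiKO and 730 and 46 in control libraries. How the sorted fractions were divided is not given, so the 2 libraries of a group need not repeat the same sort. Of the 7 members 3 had enough counts to enter. Hes5 and Heyl had 0 UMIs, Hey2 had 5 and Hes6 had 58. None of the 3 passed an adjusted p of 0.05 in either comparison, where 19 genes (0.218%) were called for the label ECiKO and 26 (0.298%) for the label GlastiKO, and 132 and 147 had an unadjusted p under 0.05. A count of 0 of 3 lies where shares this small would put it. DESeq2 called 2 genes in each comparison, and none of them was a member.

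Hey1 had the largest differences of the 3. Endothelial-like cells held 93.3 (118 UMIs) and 175 (7 UMIs) CPM in the libraries labelled ECiKO, 81.9 (129 UMIs) and 74.7 (16 UMIs) in those labelled GlastiKO, and 41.8 (109 UMIs) and 33.5 (4 UMIs) in the controls. All 4 libraries with a deletion label lay above both controls. How many of the 8716 tested genes show such an order was not counted, so it is given as values only. In the small libraries single cells weigh heavily: 4 of the 7 UMIs of ECiKO 2, 5 of the 16 of GlastiKO 2 and 2 of the 4 of control 2 lay in 1 cell each, and without that cell the levels were 92.8, 53.0 and 17.6. The counting intervals of GlastiKO 2 (42.7 to 121) and control 1 (34.3 to 50.4) overlap, and those of ECiKO 2 (70.5 to 362) and control 2 (9.12 to 85.7) are wide. The log2 fold change was 1.34 ± 0.372 (SE) for ECiKO against control (edgeR, Benjamini-Hochberg adjusted p = 0.1052). For GlastiKO against control it was 1.01 ± 0.351 (edgeR, Benjamini-Hochberg adjusted p = 0.6974). Neither passed. Both use the same 2 control libraries, and the values of Hey1 were known when the genes were listed. Levels by group were part of that choice, so no adjusted p for Hey1 is independent of it.

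The call for ECiKO depends on the fit. It passed with library number as a replicate block (1.29, edgeR adjusted p = 0.0111), a pairing that the labels do not give. It also passed with the 4 libraries of these 2 groups alone (1.33, edgeR adjusted p = 0.0437). Over the 15 alternatives the adjusted p ranged from 0.0111 to 1.0 and the fold change from 1.25 to 1.88. For GlastiKO the range was 0.11 to 1.0 and 0.82 to 1.38.

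Shares of cells gave the same order of groups in the libraries numbered 1, which held most of the endothelial-like cells. A Hey1 UMI was seen in 19.1% of ECiKO 1, 17.7% of GlastiKO 1 and 10.8% of control 1 endothelial-like cells (medians of 2841, 3208.5 and 3460.5 UMIs). With each cell thinned to 1000 UMIs the shares were 8.33%, 6.35% and 2.94%, with 62, 27 and 49 shallower cells left out. In oligodendrocyte-like cells the share was 1.22% and, thinned, 0.0587%. All but 1 of these cells came from the libraries numbered 2, so this is no background for the libraries numbered 1. For endothelial-like cells of the libraries numbered 2 the thinned shares rest on 2, 2 and 1 cells with a UMI and are not read.

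The zones of the vessel tree were too thinly filled for a test. In the libraries numbered 1, capillary-like cells held Hey1 at 91.7 in ECiKO, 76.7 in GlastiKO and 42.5 in control, from 352, 397 and 649 cells. Arterial-like cells held 283, 189 and 43.1, from 11, 12 and 4 UMIs in 9, 15 and 23 cells. Venous-like cells held 0 UMIs in 9, 9 and 16 cells. The upper limits of these zeros, 122, 129 and 57.3, lie above the capillary-like level of the same library. Over the 3 libraries together the upper limit is 29.9, against 63.9 in capillary-like cells. The arterial-like level was 3.08 (1.49 to 5.74) times the capillary-like level in ECiKO 1, 2.46 (1.23 to 4.48) times in GlastiKO 1 and 1.01 (0.271 to 2.68) times in control 1. Capillary-like cells were 87.8% to 88.9% of the class in these 3 libraries, so their Hey1 levels largely repeat those of the whole class. The part of the zones in the Hey1 values was not tested.

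Other measures moved between the same libraries. Cells with Plvap, a gene of fenestrated and sprouting vessels, numbered 0 and 0 in ECiKO, 3 and 0 in GlastiKO and 36 and 1 in control libraries. The 36 cells of control 1 held 1 Hey1 UMI (5.25 CPM) against 44.7 in its other endothelial-like cells, and Hes1 at 839 against 303. Nrarp stood at 131 against 14.9, with 25 of the 61 Nrarp UMIs of control 1 endothelial-like cells in these 36. Without cells holding Plvap the Hey1 fold changes were 1.25 for ECiKO and 0.91 for GlastiKO, while the genes called fell to 2 and 6. Arterial zone markers summed to 436 and 50.1 in ECiKO, 404 and 196 in GlastiKO and 410 and 385 in control libraries. Astroglial markers summed to 7.91 and 75.2, 45.1 and 191, and 20.7 and 117 CPM in the same order. Choroid plexus markers reached 4036 in ECiKO 2 and at most 42.0 elsewhere. The part of the astroglial and choroid plexus markers in the Hey1 values was not tested.

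**Figure D2:**
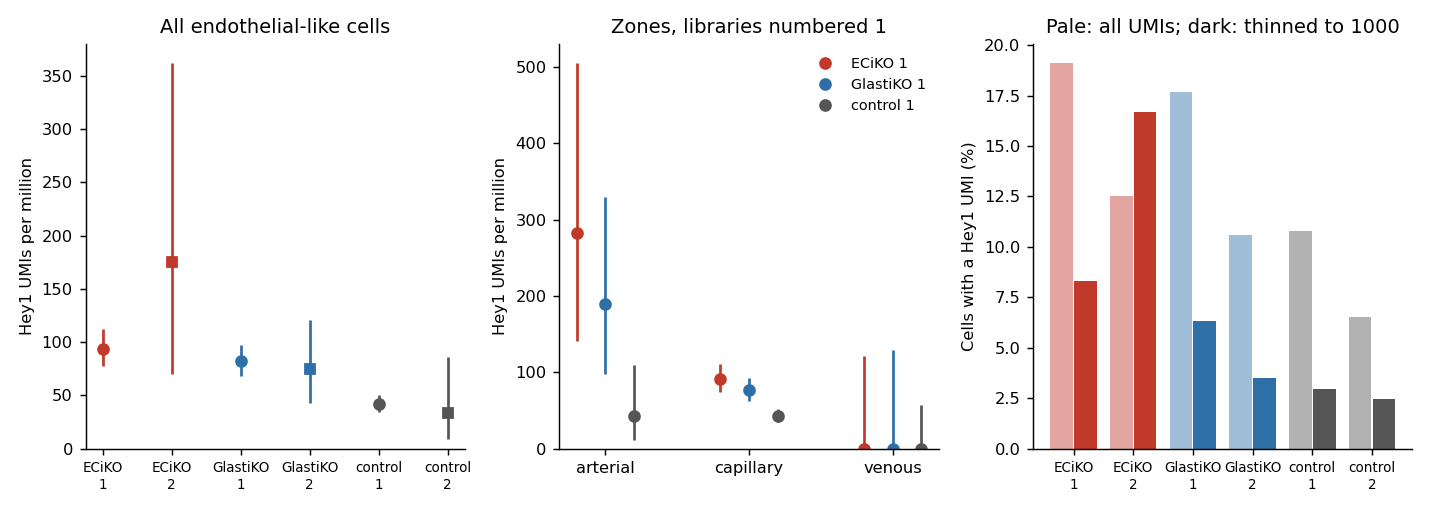
Hey1 in endothelial-like cells. Left, CPM in each library with exact 95% counting intervals; middle, the same by vessel zone in the libraries numbered 1; right, the percentage of cells with a Hey1 UMI before (pale) and after (dark) thinning to 1000 UMIs. The libraries labelled ECiKO and GlastiKO lie between 74.7 and 175, above the controls at 41.8 and 33.5, and the wide bars belong to libraries with 4 to 16 UMIs.

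Hes1 and Nrarp did not pass either. Hes1 had a log2 fold change of -0.14 ± 0.299 for ECiKO and -0.20 ± 0.284 for GlastiKO (edgeR, adjusted p = 1 for both), and its groups overlap in the values given above. Nrarp had -0.42 ± 0.517 and -0.10 ± 0.464 (edgeR, adjusted p = 1 for both). The sign of both genes turned when single libraries or the Plvap cells were left out. No direction is established for either gene.

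The pathway around them gave 0 called genes among 39 of 60 tested, in both comparisons, beside 0.218% and 0.298% of all genes, shares at which a list of this size need not hold any. The median log2 fold change of the 39 was -0.067 for ECiKO, beside -0.028 for all genes, and -0.026 for GlastiKO, beside 0.005. Dll4, the ligand of arteries and sprouts that lies upstream of Hey1, had 0.87 ± 0.317 for ECiKO and 0.43 ± 0.302 for GlastiKO (edgeR, adjusted p = 1 for both). The receptors Notch1 and Notch4 had 0.15 ± 0.297 and 0.4 ± 0.334 for ECiKO, and the ligands Jag1 and Jag2 -0.09 ± 0.351 and -0.09 ± 0.305. None of the 4 passed. All 5 tested genes of receptor glycosylation had fold changes below 0, with medians of -0.358 and -0.331, and none of them passed. They are 1 of 9 lists, and the 2 comparisons share the control libraries. Of all 39 genes, 16 lay above 0 for ECiKO and 15 for GlastiKO. Of the 7 genes of the transcription complex, 1 lay above 0 in each comparison.

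In astroglial-like cells each group had 1 library with at least 20 cells: 175 in ECiKO 2, 418 in GlastiKO 2 and 410 in control 2. These comparisons therefore set 2 libraries beside each other, with no test and no replicate. A gene was counted when the 2 sums together held 100 UMIs, and taken as past the fold from 1.5-fold either way.

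For GlastiKO 2 over control 2, 2 of the 6 members that could be counted were past the fold and lower, against 597 of 6321 genes (9.44%) in either direction. Hes5 was 337 in GlastiKO 2 and 525 in control 2, from 747 and 973 UMIs, a ratio of 0.642 (0.583 to 0.707). Heyl was 19.8 and 36.1, a ratio of 0.549 (0.366 to 0.815). Hes1 followed with 0.709 (0.592 to 0.849) and did not reach the fold. Nrarp had 0.832 (0.687 to 1.01), Hey2 0.858 (0.615 to 1.2) and Hey1 1.01 (0.758 to 1.34), and their intervals include 1. Hes6, with under 100 UMIs, had 1.26 (0.83 to 1.95). The median ratio was 0.77 over the 6 members and 1.05 over all genes counted. Levels by group were part of the choice of the members, so neither this median nor the 2 of 6 is independent of it. A count of 2 of 6 is also small. Pericyte markers summed to 245 CPM in the GlastiKO 2 and 137 in the control 2 sum, and their part in the result was not tested.

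For ECiKO 2 over control 2, 1 of 4 counted members was past the fold, against 551 of 3802 genes (14.5%). Hes1 was 88.0 in ECiKO 2 and 146 in control 2, from 34 and 271 UMIs, a ratio of 0.602 (0.409 to 0.862). Hes5 had 0.928 (0.789 to 1.09), Hey1 1.04 (0.609 to 1.71) and Nrarp 0.76 (0.516 to 1.09). Below 100 UMIs stood Heyl with 0.573 (0.238 to 1.2), Hey2 with 0.649 (0.299 to 1.26) and Hes6 with 2.71 (1.53 to 4.68). Of the 22 Hes6 UMIs 9 came from 1 cell, and under the stricter marker gate the Hes6 ratio was 1.31. A count of 1 of 4 is too small to be set apart from that background. The ECiKO 2 cells were shallow, with a median of 939 UMIs against 3753.5, and held choroid plexus markers at 1253 against 114 CPM, whose part in these ratios was not tested.

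**Figure D3:**
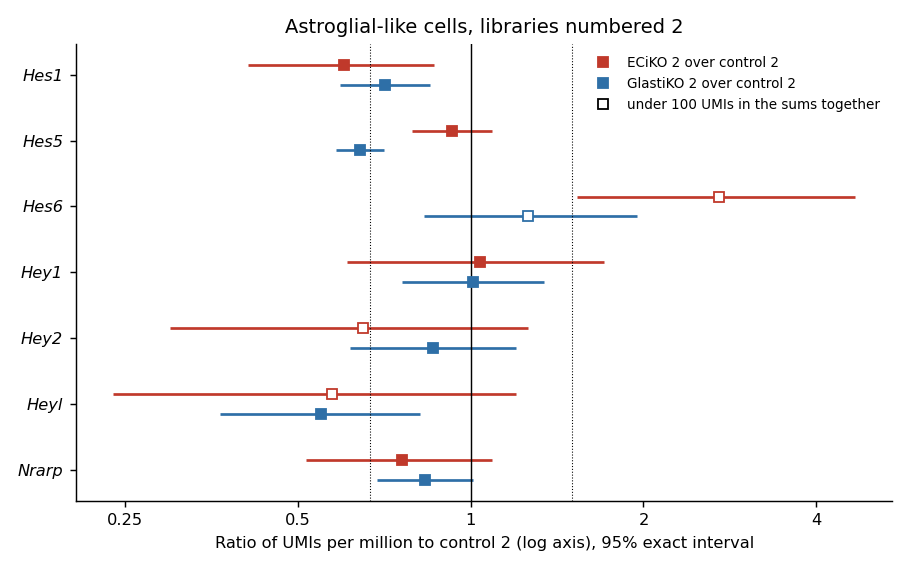
Ratio of CPM in astroglial-like cells of ECiKO 2 and GlastiKO 2 to control 2 for the 7 genes (log axis), with exact 95% intervals for counting error; open points mark genes with under 100 UMIs in the sums together and dotted lines a 1.5-fold difference. Among the filled points the GlastiKO 2 ratios of Hes5 (0.642) and Heyl (0.549) lie beyond 1.5-fold, and so does the ECiKO 2 ratio of Hes1 (0.602), while Hey1 stays at 1.04 and 1.01.

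The makeup of these sums differed between libraries by marker detection. By a split made after the data were seen, cells were divided by a UMI of Lhx2, a forebrain patterning factor, and of Agt or Slc6a11, genes of astrocytes outside the telencephalon. Cells with both numbered 26 of 175 in ECiKO 2, 180 of 418 in GlastiKO 2 and 63 of 410 in control 2, and cells with Agt or Slc6a11 alone numbered 96, 196 and 313. Since the split needs detected UMIs, cells with both were deeper, with medians of 5475.5, 6084.5 and 4750 UMIs against 934.5, 3939.5 and 3950.

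Heyl separated these kinds. It held 0, 4.92 and 2.67 in cells with Lhx2 and Agt or Slc6a11, from 0, 6 and 1 UMIs in ECiKO 2, GlastiKO 2 and control 2. In cells with Agt or Slc6a11 alone it held 30.3, 35.9 and 45.9. Within cells with Agt or Slc6a11 alone the GlastiKO 2 ratio of Heyl was 0.783 (0.496 to 1.21), no longer past the fold, and within cells with both it was 1.84 (0.224 to 84.8). Hes5 lay higher in cells with both in ECiKO 2 and closer between the kinds in the other libraries, with 614, 344 and 569 in cells with both and 424, 342 and 521 in cells with Agt or Slc6a11 alone. Its GlastiKO 2 ratio was 0.606 (0.512 to 0.718) in cells with both and 0.657 (0.573 to 0.752) in cells with Agt or Slc6a11 alone. In the few cells with Lhx2 alone Hes5 held 429 in GlastiKO 2 and 497 in control 2, from 18 and 12 UMIs. Cells with neither held 60.2 and 252, from 4 and 10 UMIs. The part of makeup in the lower Hes5 was not tested. The Hes1 ratio was 1.2 (0.802 to 1.84) in cells with both and 0.706 (0.555 to 0.894) in cells with Agt or Slc6a11 alone.

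**Figure D4:**
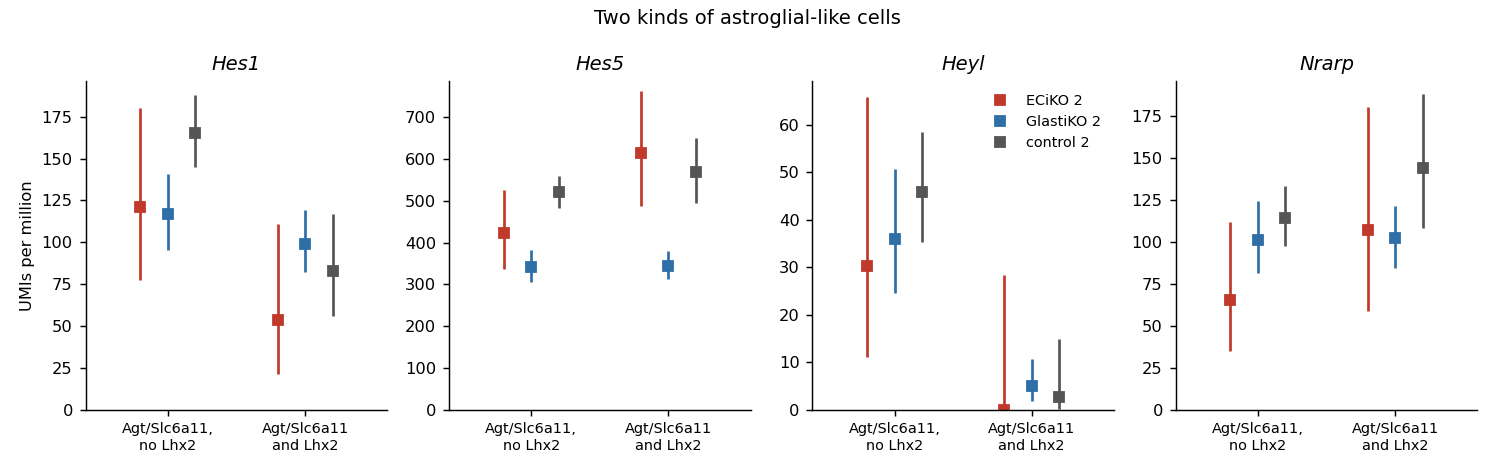
Levels (CPM) of Hes1, Hes5, Heyl and Nrarp in astroglial-like cells holding Agt or Slc6a11 without Lhx2 and holding both, for ECiKO 2, GlastiKO 2 and control 2, with exact 95% counting intervals. Heyl stands at 30.3 to 45.9 in the first kind and at 0 to 4.92 in the second, whereas Hes5 of GlastiKO 2 lies below control 2 in both.

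Around the members, 25 pathway genes could be counted in astroglial-like cells for ECiKO 2 and 38 for GlastiKO 2, with median ratios of 1.01 and 1.03. In each comparison 3 of them were past the fold, which is no larger a share than the 14.5% and 9.44% of all genes, so they are listed as values only. Past the fold in ECiKO 2 were Notch2 (1.6, 1.08 to 2.33) and the coactivator Maml2 (1.64, 1.03 to 2.55), both higher, and Psenen, a subunit of the protease that frees the receptor (0.6, 0.379 to 0.912), lower. In GlastiKO 2 the corepressor Tle1 was higher (1.67, 1.27 to 2.21), and the ligand Jag1 (0.606, 0.443 to 0.826) and Dtx4, a ubiquitin ligase acting on Notch (0.623, 0.453 to 0.852), were lower. Tle1 and Dtx4 are named because they passed the fold. Notch1, the most abundant receptor of these cells, had ratios of 1.01 (0.805 to 1.25) and 1.03 (0.915 to 1.17), and Lfng had 0.697 (0.55 to 0.874) and 0.698 (0.618 to 0.787) in the 2 comparisons, which share control 2.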

How the data were processed

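Per the labels' protocols, cells were digested for 30 minutes at 37 degrees, sorted and made into 10x Chromium 3′ libraries. The authors deposited raw UMI counts per gene and barcode, without normalization, made with Cell Ranger 5.0.0 and mm10 per the labels' protocols and the file headers. Cell Ranger 2.1.1 and Seurat 4 are named instead in the submitters' processing notes. How the sorted fractions were divided between libraries is not given in the sources used here.

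Barcodes with at least 300 genes and at most 20% mitochondrial UMIs were kept (6323 of 7433). A cell was put in a class when it held at least 3 of the class's 10 markers and at least 2 more than of any other of 15 classes, which left 227 cells without a class. Doublets were kept; leaving out the 61 cells (0.965%) that Scrublet marked was an alternative. UMIs were summed per class and library and scaled to 1000000 per sum (CPM). Library totals ran from 1735247 to 14859187 UMIs. Endothelial-like sums of all 6 libraries were tested with edgeR 4.0.16 (R 4.3.3; filterByExpr, TMM, quasi-likelihood F test, group as the only term, Benjamini-Hochberg at 0.05), with 3 residual degrees of freedom, so its p-values lean on the spread shared by all genes. SE was derived from the fold change and the F statistic. The script was tested on simulated data. Poisson and Clopper-Pearson intervals have 95% coverage, and a count of 0 is given a floor of 3 UMIs. Python 3.11.15, scanpy 1.11.5, leidenalg 0.10.2 and DESeq2 1.42.0 were also used.

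The members, the 60 pathway genes in 9 lists, the markers and the tests were chosen with earlier results of these data known. Named are the 7 members in each class, up to 4 genes per pathway list by level, with exceptions stated, and the 3 genes most like each member. Some genes that these rules name are not reported here. Alternatives were leaving out each library, a replicate block, other scaling, test, filter, sample set, gates, clusters and mitochondrial limit, capillary and unzoned cells alone and, added after the data were seen, doublets, Plvap cells and the kinds of astroglia. Whether library numbers pair was checked by the correlation of deviations from group means. It was 0.067, 0.042 and 0.086 for the 3 pairs of groups. Small sums, such as the 24 endothelial-like cells of ECiKO 2, can hold such values low, so the check cannot decide. The numbers were not taken as pairs, although they follow the share of endothelial-like cells.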

Additional observations from a re-analysis of the deposited data

How the results depend on the processing

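Over the sums of all libraries, each of the 7 members kept its highest class of astroglial-like, endothelial-like and pericyte-like cells in 4 alternatives, which was the pericyte-like class for 4 of them, and 328 of 336 levels moved by less than their counting interval. Of 83 astroglial ratios under alternatives 75 stayed. Values that moved include Hes6 for ECiKO 2 over control 2, with 1.31 under the stricter gate and 1.29 with Leiden clusters, while the split into kinds, added after the data were seen, took several ratios across 1, among them Heyl (1.84) and Hes1 (1.2) for GlastiKO 2 in cells holding Lhx2 with Agt or Slc6a11, and Hes6 for ECiKO 2 (0.461) and GlastiKO 2 (0.718) in cells with Agt or Slc6a11 alone. The number of genes called in endothelial-like cells, 19 for ECiKO and 26 for GlastiKO, depended on the setting. With the replicate block it was 32 for ECiKO, without the low-count filter 30, with DESeq2 2 and 2, and without Plvap cells, an alternative added after the data were seen, 2 and 6. Leaving out 1 library gave 8 to 35 for ECiKO (8 without control 1, 10 without ECiKO 1, 35 without ECiKO 2) and 5 to 34 for GlastiKO (5 without control 1, 11 without GlastiKO 1). Hey1 kept its direction in all 15 alternatives of each comparison. Leaving out 1 library gave Hes1 -1.58 to 0.16 for ECiKO and -0.72 to 0.11 for GlastiKO, and Nrarp -0.05 to 0.06 for GlastiKO. Their signs turned as follows: Hes1 became 0.05 without control 1 and 0.16 without ECiKO 2 for ECiKO, and 0.01 without control 1 and 0.11 without GlastiKO 2 for GlastiKO, and Nrarp became 0.1 without Plvap cells for ECiKO, and 0.06 without GlastiKO 2 and 0.42 without Plvap cells for GlastiKO. The cause of these changes was not tested. The labels do not say whether the numbers pair the libraries. The block passed Hey1 for ECiKO (1.29, edgeR adjusted p = 0.0111) and no other member. Depth limits ECiKO 2 most, since its endothelial-like sum held 39895 UMIs from 24 cells, where 1 UMI weighs heavily.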

Other observations

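Some classes held too few cells for a comparison but had values for these genes. In 7 oligodendrocyte precursor-like cells from 3 libraries, Hes5 had 28 UMIs, 372 CPM (248 to 538), in 3 of the cells, and Nrarp had 93.1 (37.4 to 192). In 17 neuroblast-like cells of ECiKO 2, below the minimum of 20, Hes6 had 13 UMIs, 251 CPM (133 to 428), while Hes1, Hes5, Hey1, Hey2, Heyl and Nrarp had 0. Choroid plexus-like cells held Hes1 at 18.3 in ECiKO 2 (64 cells), 44.5 in GlastiKO 2 (21 cells) and 39.7 in control 2 (7 cells), with 0 Hes5 UMIs in each. Cycling progenitor-like cells beyond the 36 of ECiKO 2 were 1 in GlastiKO 2, with 29 Hes6 UMIs, and 2 in control 2, of which 1 held all 20 Hes6 UMIs. Control 2 also held the only 2 Hes1 UMIs of the class.

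In GlastiKO 2, 27 astroglial-like cells held neither Lhx2 nor Agt nor Slc6a11, and in these Hey2 stood at 226 CPM (126 to 372) from 15 UMIs, against 25.2 from 1 UMI in the 26 such cells of control 2. These cells also held Heyl at 90.3, against 25.2, and Hes5 at 60.2, against 252. Under Leiden clusters the astroglial-like Hey2 level of GlastiKO 2 was 23.7 in place of 34.3.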
